A study of Mus musculus with 22 samples.

Results

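Expression of 10 genes of adult neurogenesis, the formation of neurons from dividing precursors in the adult brain, was examined in hippocampus (HIP) and entorhinal cortex (EC) from a mouse model of Down syndrome. They were chosen by symbol among the 55385 genes of a count table, and comprise the neural stem cell gene Sox2, the cell cycle genes Mki67 and Top2a, the intermediate progenitor gene Eomes, the pro-neural gene Neurod1, and the immature neuron genes Dcx, Igfbpl1, Sox11, Draxin and Calb2. None of the 10 lies in the triplicated segment of the model.

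RNA was sequenced from both regions of male mice aged 5 to 6 months, 6 Ts66Yah and 5 wild-type (wt) littermates, in 22 libraries. Ts66Yah mice carry a freely segregating minichromosome that adds a copy of distal Mmu16, a stretch of mouse chromosome 16 that corresponds to much of human chromosome 21, and from which the centromeric part of Mmu17 present in the parental Ts65Dn line was removed with CRISPR/Cas9. The line descends from a single founder on a mixed B6C3B background, and the wt littermates carry no minichromosome. The question was whether the extra copy was accompanied by different levels of these genes in the HIP, which holds a neurogenic niche, with the EC, where no such niche is established, measured in the same animals.

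In the dentate gyrus of the HIP, radial glia-like stem cells that express Sox2 give rise to dividing intermediate progenitors, marked by Eomes and by cell cycle genes such as Mki67 and Top2a. Their progeny pass through a neuroblast stage with Neurod1, Igfbpl1, Sox11 and Dcx, then through a short postmitotic stage with calretinin, the product of Calb2, before they mature into granule neurons. Several of these genes also have other sources in the adult brain: Sox2 in astrocytes, Calb2 in interneurons and hilar mossy cells, Eomes and Calb2 in Cajal-Retzius cells, Dcx in layer II cells of the neighbouring piriform cortex, and cell cycle genes in dividing oligodendrocyte precursors. In bulk tissue, fewer cells of a type and less RNA per cell cannot be told apart.

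The libraries held 25.9 to 50.1 M counts (median 34.7 M), each replicate was a separate mouse, and no pair of libraries within a group had counts as close as repeated sampling of 1 library would give. The segment checked the labels: in Ts66Yah EC 45 of the 93 segment genes tested were called higher than in wt, with a median fold of 1.489, and in the HIP 58 were, with a median fold of 1.501. Levels are given as CPM, which are counts relative to library size, scaled with TMM factors. A marker list separated libraries within the HIP. The mean log2 CPM of 10 ependymal and choroid plexus genes was 1.91 in wt HIP replicate 4, against 3.63 to 4.89 in the other 10 HIP libraries and -0.28 to 0.84 in the EC.

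Levels between genes were compared per length. Per kb of exon, Sox2 was highest in wt HIP at 11.7 ± 1.60 CPM per kb (SD, n = 5), followed by Calb2 at 8.69 ± 2.88 and Neurod1 at 7.77 ± 0.623. Dcx, a microtubule-associated protein of migrating neurons, stood at 1.54 ± 0.217 CPM per kb and Sox11, a SoxC transcription factor, at 1.28 ± 0.110. The remaining genes lay below 1 CPM per kb. Igfbpl1, a secreted protein related to the insulin-like growth factor binding proteins, was at 0.467 ± 0.191, Mki67 at 0.263 ± 0.0478, Draxin, an axon guidance protein, at 0.199 ± 0.0746, Top2a at 0.153 ± 0.0284 and Eomes at 0.101 ± 0.0502 CPM per kb. In this order the intervals of mean ± SD overlapped between all neighbours except Neurod1 and Dcx, and Sox11 and Igfbpl1. In wt EC the same 5 genes led in the same order, from 10.9 ± 1.73 CPM per kb for Sox2 to 1.27 ± 0.184 for Sox11, whereas Eomes was last at 0.00728 ± 0.00733.

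**Figure D1:**
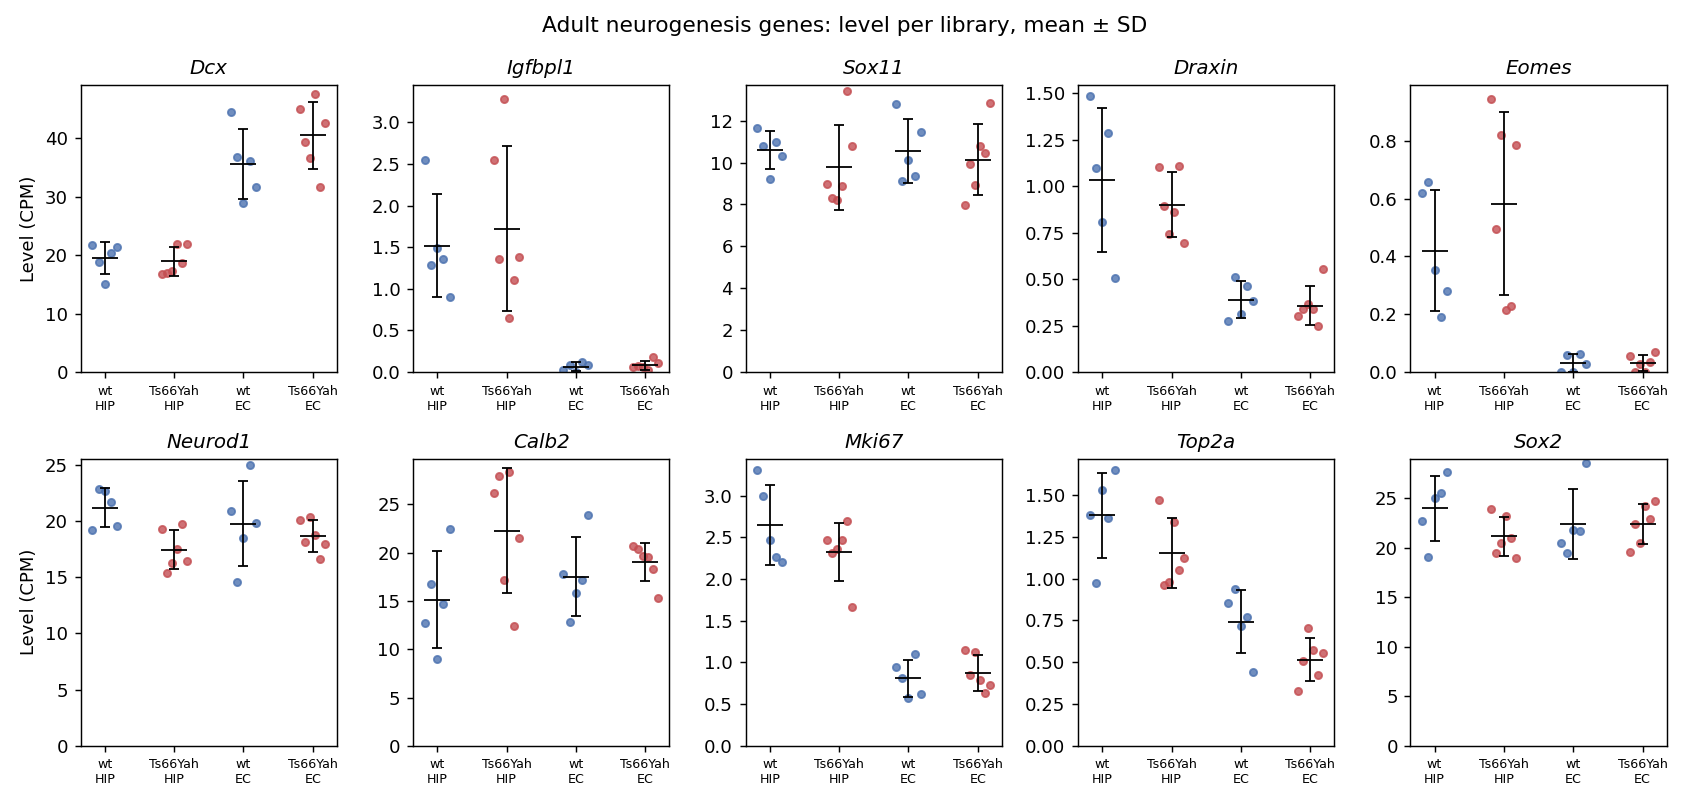
Level of each gene in CPM (vertical axes from 0) in every library of wt HIP, Ts66Yah HIP, wt EC and Ts66Yah EC; points are libraries, blue for wt and red for Ts66Yah, and bars give the mean ± SD. Igfbpl1, Eomes, Mki67 and Top2a lie higher in all HIP libraries than in all EC libraries of the same genotype, Dcx lies lower, and no gene separates the genotypes within a region.

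The regions were compared first, to see which of the genes were higher in the tissue with the niche. In wt, 47.7% of all tested genes were called between HIP and EC by edgeR's quasi-likelihood test at an adjusted p under 0.05, and 54% in Ts66Yah. Among the genes of neurogenesis, 5 of the 9 tested were called in each genotype, a share close to that of all genes: Igfbpl1, Mki67, Draxin and Top2a were higher in the HIP and Dcx was lower. The groups of libraries did not overlap for 4 of 9 in wt (35.4% of all tested genes) and for 5 of 9 in Ts66Yah (32.2%). Eomes had too few counts in the EC for the filter. Igfbpl1 had too few there as well and passed it only through its HIP libraries. Sox2, Sox11, Neurod1 and Calb2 were not called in either genotype.

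Igfbpl1 (ENSMUSG00000035551; GRCm38, chr4:45809468-45826923, minus strand) was the gene with the largest fold between the regions among those tested. Its level in wt HIP was 2.55, 1.29, 1.49, 1.36 and 0.896 CPM in replicates 1 to 5, and in Ts66Yah HIP 0.646 at lowest, 1.37 at the median and 3.29 at highest. In the EC it gave 0 to 4 counts per wt library and 1 to 5 per Ts66Yah library, so every HIP library lay above every EC library. Within single mice, log2 CPM was higher in the HIP by 2.72 to 4.91 in wt and by 2.33 to 4.89 in Ts66Yah. The log2 fold change of HIP against EC was 4.49 (SE 0.47, edgeR adjusted p 6.92e-06) in wt and 4.43 (SE 0.49, adjusted p 2.75e-06) in Ts66Yah. Igfbpl1 entered these fits only through its HIP libraries, as its counts in the EC were under the filter. Without a filter on low counts the values were 4.50 (edgeR adjusted p 7.805e-08) in wt and 4.42 (adjusted p 1.22e-07) in Ts66Yah. From the summed counts, 271 against 11 in wt, the HIP level was 23.4-fold that of the EC, with a 95% interval of 12.9 to 47.5 for counting error only.

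Eomes, the T-box factor TBR2 of intermediate progenitors (ENSMUSG00000032446; chr9:118478212-118486132, plus strand), had the same pattern at lower counts. The wt HIP libraries held 18, 27, 18, 5 and 10 counts and the Ts66Yah HIP libraries 8 to 36, against 0 to 2 in every EC library. The HIP was higher in 5 of 5 wt and 6 of 6 Ts66Yah mice. Summed counts were 78 in wt HIP and 5 in wt EC, a ratio of 14.8 (95% counting interval 6.10 to 47.0), and 132 and 6 in Ts66Yah, a ratio of 19.3 (8.63 to 53.5). Fitted without a filter on low counts, the log2 fold changes were 3.72 (edgeR adjusted p 6.75e-05) and 4.101 (adjusted p 9.49e-06), so that 6 of 10 genes were then called in each genotype, against 25% of all genes in wt and 28.5% in Ts66Yah. The count was also 6 of 10 with DESeq2 (26.4% and 29.8% of all genes) and with the animal as a block (52.1% and 57.5%). Without the filter and with DESeq2, 35514 genes were fitted in wt, against 17935 with the filter. The genes so added have few counts and lower the share over all genes, so 6 of 10 cannot be read as an excess over it. With the animal as a block, fitted to 19318 genes in wt, the shares were close. The annotated antisense gene Gm33460 overlaps exons of Eomes, and whether counting used strand is not stated, so reads of the pair cannot be told apart here.

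Both cell cycle genes were higher in the HIP. Mki67 encodes the proliferation antigen Ki-67, found in cycling cells of any type. Its level in wt HIP was 3.31, 2.99, 2.47, 2.27 and 2.21 CPM, and in wt EC 0.942, 0.814, 0.575, 1.11 and 0.617 CPM. In Ts66Yah it ranged from 1.67 to 2.70 CPM in the HIP (median 2.41) and from 0.631 to 1.15 CPM in the EC (median 0.815). The regions did not overlap, and the log2 fold change was 1.71 (SE 0.21, edgeR adjusted p 2.23e-05) in wt and 1.40 (SE 0.18, adjusted p 1.03e-05) in Ts66Yah. Top2a, the topoisomerase that untangles DNA during division, had a mean of 1.38 ± 0.256 CPM in wt HIP and 0.743 ± 0.188 in wt EC (SD, n = 5), and of 1.15 ± 0.208 and 0.515 ± 0.130 CPM in Ts66Yah (SD, n = 6). It was called at log2 fold changes of 0.89 (SE 0.22, adjusted p 0.00476) and 1.16 (SE 0.20, adjusted p 0.000184).

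The 250 bases before the RefSeq start sites of Mki67 and Top2a are shown (GRCm38.p6, 5′ to 3′ on the gene's strand, which is the minus strand for both). Capitals are used for CCAAT and TTTGAA on either strand. These are the letters of the CCAAT box and of the cell cycle homology region known from promoters of genes expressed in dividing cells.
Mki67, chr7:135716380-135716629: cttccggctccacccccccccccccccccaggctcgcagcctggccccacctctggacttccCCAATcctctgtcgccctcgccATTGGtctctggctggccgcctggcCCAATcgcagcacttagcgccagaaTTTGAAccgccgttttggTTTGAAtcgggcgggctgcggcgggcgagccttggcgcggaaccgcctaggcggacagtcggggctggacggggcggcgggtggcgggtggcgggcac
Top2a, chr11:99024190-99024439: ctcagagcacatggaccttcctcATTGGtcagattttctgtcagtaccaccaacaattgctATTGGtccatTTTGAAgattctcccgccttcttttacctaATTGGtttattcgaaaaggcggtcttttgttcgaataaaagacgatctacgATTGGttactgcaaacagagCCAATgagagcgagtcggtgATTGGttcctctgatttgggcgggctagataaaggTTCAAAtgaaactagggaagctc
The Mki67 window holds CCAAT 3 times and TTTGAA 2 times, and the Top2a window CCAAT 6 times and TTTGAA 2 times; the motifs do not overlap each other. Among 32851 promoter windows of the same length, 33.9% hold CCAAT, 15.99% TTTGAA, 5.55% both, and 1.53% TTTGAA together with CCAAT at least 2 times. Any part of these motifs in the levels of Mki67 and Top2a, or in their difference between the regions, was not tested. RefSeq windows were matched for 8 of the 10 genes. Of the others, Sox11 holds each motif 1 time, Eomes holds CCAAT 2 times, Sox2 and 1 of 2 Dcx windows hold it 1 time, and neither motif occurs in the windows of Draxin and Neurod1. The E-box letters CAGCTG, searched on both strands, occur 1 time each in the windows of Sox11 and Draxin and in 13% of all windows, and CAGATG occurs in none of the windows of these genes and in 14.4% of all.

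Dcx (ENSMUSG00000031285; chrX:143855842-143933311, minus strand) went the other way. Its level in wt was 21.8, 18.8, 15, 20.4 and 21.4 CPM in the HIP and 44.5, 36.8, 28.9, 36.1 and 31.7 CPM in the EC. In Ts66Yah it ranged from 16.9 to 21.9 CPM in the HIP (median 17.9) and from 31.6 to 47.5 CPM in the EC (median 41.0). The EC was higher in all 11 mice, with log2 fold changes of HIP against EC of -0.87 (SE 0.13, edgeR adjusted p 9.10e-05) in wt and -1.09 (SE 0.10, adjusted p 6.06e-07) in Ts66Yah. The lowest EC library of either genotype, at 28.9 CPM, lay above the highest HIP library, at 21.9 CPM.

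Draxin had a mean of 1.03 ± 0.388 CPM in wt HIP and 0.388 ± 0.0998 in wt EC (SD, n = 5), which edgeR called at 1.39 on the log2 scale (SE 0.31, adjusted p 0.00223); in Ts66Yah the value was 1.33 (SE 0.21, adjusted p 0.000110). It was higher in the HIP of all 11 mice, although the lowest wt HIP library, at 0.504 CPM, fell within the EC range. The other 4 genes were not called. In wt the log2 fold change was 0.00 for Sox11 (95% interval -0.24 to 0.24), 0.10 for Neurod1 (-0.16 to 0.36), 0.10 for Sox2 (-0.16 to 0.35) and -0.21 for Calb2 (-0.68 to 0.26). These intervals leave out a difference of 1.5-fold for Sox11, Neurod1 and Sox2 but not for Calb2. In Ts66Yah, Calb2 was at 0.23 (edgeR adjusted p 0.260), and it was called without Ts66Yah replicate 5 (0.35, adjusted p 0.0450; 0.0450 to 0.491 over the alternatives).

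**Figure D2:**
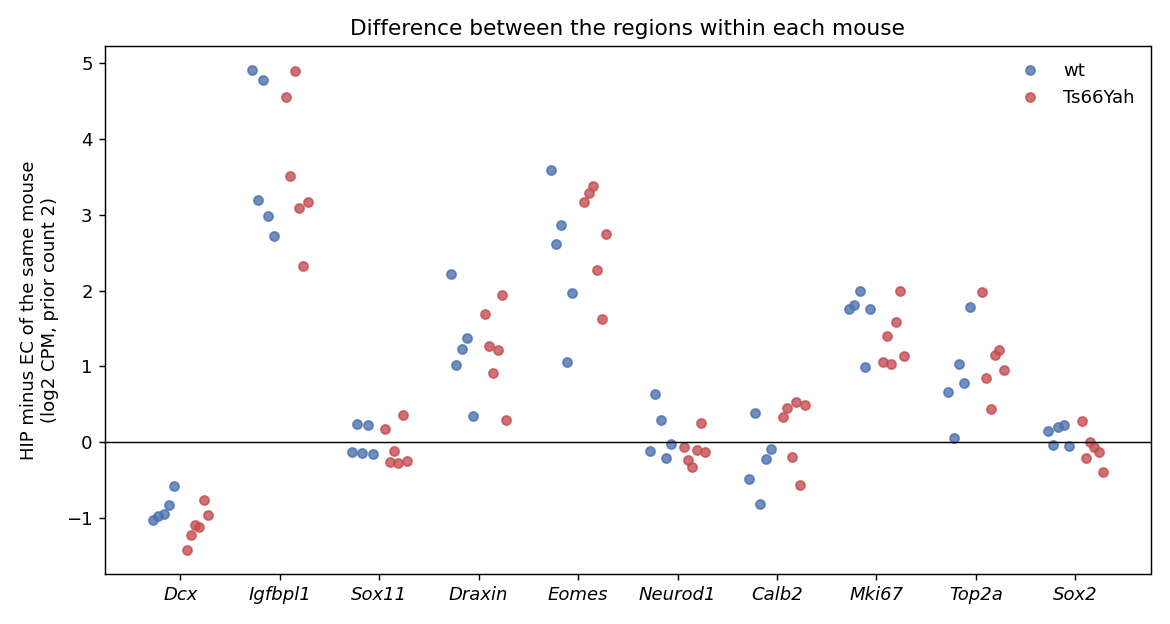
Log2 CPM of the HIP minus that of the EC of the same mouse (vertical axis, prior count 2) for each gene; each point is 1 mouse, blue for the 5 wt and red for the 6 Ts66Yah. Igfbpl1, Draxin, Eomes, Mki67 and Top2a lie above 0 in all 11 mice and Dcx lies below 0 in all 11, whereas Sox11, Neurod1, Calb2 and Sox2 fall on both sides.

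Marker lists of other cells also differed between the regions, where 47.7% of all tested genes were called in wt and 54% in Ts66Yah. Ependymal and choroid plexus genes were higher in the HIP for 9 of 9 tested in wt and 10 of 10 in Ts66Yah, with summed levels of 131.9 to 3384 CPM in the HIP and 16.5 to 53.0 CPM in the EC; Ttr, the transthyretin of the choroid plexus, had a mean of 1585 CPM in wt HIP and 12.0 in wt EC, and Kl had 68.4 and 5.32 CPM. No gene of the list was at 0 in all libraries of a group. In wt HIP replicate 4, the library lowest in these genes, Igfbpl1 stood at 1.36 CPM, Mki67 at 2.27 CPM, Top2a at 1.36 CPM and Draxin at 1.28 CPM, each above the highest EC library of its genotype. Eomes stood at 0.189 CPM (5 counts) there, the lowest of the wt HIP libraries and also above the highest wt EC library, at 0.0615 CPM. For the ependymal and choroid plexus list this library still had a mean log2 CPM of 1.91, above the highest EC library at 0.84. Any part of ependymal or choroid plexus tissue in the levels of the neurogenesis genes was not tested. Genes listed for oligodendrocyte precursors, another dividing population, were higher in the HIP for 5 of 10 and lower for 2 of 10 in each genotype. Their summed levels were 288.9 to 366.3 CPM in the HIP and 245.7 to 317.8 in the EC. The 2 highest per kb, Olig1 (74.05 against 39.0 CPM in wt) and Sox10 (50.9 against 19.2 CPM), were both higher in the HIP. The 2 called lower in wt, named after their values were seen, were Pdgfra (63.2 against 85.0 CPM) and Bmp4 (2.29 against 3.35 CPM). In Ts66Yah the 2 called lower, named in the same way, were Pdgfra (65.5 against 88.7 CPM) and Cspg4 (22.2 against 26.3 CPM). The part of oligodendrocyte precursors in the levels of Mki67 and Top2a was not tested.

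Other genes of the pathway were described by lists. Of all tested genes, 47.7% were called in either direction between wt HIP and wt EC, a share to compare with the counts below. Of 26 further cell cycle genes, 8 of 23 tested were called higher in wt HIP than in wt EC and 2 lower, with a median log2 fold change of 0.34 against -0.01 over all tested genes; the 2 highest per kb were Pcna, the DNA polymerase clamp (24.6 and 25.6 CPM, not called), and Ccnd2, cyclin D2 (82.8 and 65.3 CPM, log2 fold change 0.34, edgeR adjusted p 0.00926). Among 20 further immature neuron genes, 5 were called higher in wt HIP and 9 lower (median -0.16). Neurod6 was higher (261.9 against 75.4 CPM) and Tubb3, the neuronal tubulin, lower (249.5 against 446.6 CPM). Of 16 stem cell and radial glia genes, 5 were higher and 4 lower, with Gfap, the intermediate filament of astrocytes and radial glia, at 378.2 and 93.9 CPM and the glutamate transporter Slc1a3 at 675.7 and 833.5 CPM. Of 10 intermediate progenitor genes 1 was higher and 1 lower. Mature granule neuron genes of the dentate gyrus were higher for 7 of 10 (median 2.34), among them C1ql2 at 43.9 against 0.814 CPM, while Calb1 was lower at 103.5 against 214.5 CPM.

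The genotypes were then compared within each region. In the HIP, 0.591% of all tested genes were called between Ts66Yah and wt, and 0 of the 10 neurogenesis genes were. At an unadjusted p under 0.05 there were 2, Neurod1 and Calb2, where 11.9% of all tested genes were, so the share among the 10 was near that of all genes. DESeq2 called 1, Neurod1, and 1.02% of all genes it fitted, and limma voom called 0. The groups overlapped for all 10 genes, against 1.87% of all tested genes that did not overlap.

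Neurod1, a basic helix-loop-helix factor of late progenitors and granule neurons (ENSMUSG00000034701; chr2:79452521-79456751, minus strand), had the smallest p of the 10 in the HIP. Its level was 19.2, 22.8, 22.7, 21.7 and 19.6 CPM in wt, and 15.4 at lowest, 17.0 at the median and 19.7 at highest in Ts66Yah. Of the 6 Ts66Yah libraries, 4 lay below all wt libraries and 2 within their range. The log2 fold change was -0.28 (SE 0.08, 95% interval -0.45 to -0.12), or 0.822-fold, with an edgeR p of 0.00278 unadjusted and 0.158 adjusted over all tested genes; over the alternatives the adjusted p ranged from 0.0367 with DESeq2 to 0.617. In the EC its means were 19.8 ± 3.79 CPM in wt (SD, n = 5) and 18.7 ± 1.42 in Ts66Yah (SD, n = 6), and the log2 fold change was -0.08 (-0.33 to 0.16). Exons of Neurod1 overlap Cerkl on the same strand and Gm26755 on the opposite strand.

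Calb2, the calcium-binding protein calretinin (ENSMUSG00000003657; chr8:110137502-110168210, minus strand), had the largest log2 fold change of the 10 in the HIP. Its level was 12.7, 16.8, 8.98, 14.7 and 22.5 CPM in wt, and 12.4 at lowest, 23.9 at the median and 28.4 at highest in Ts66Yah, where 3 of 6 libraries lay above all wt libraries. The log2 fold change was 0.56 (SE 0.24, 95% interval 0.05 to 1.07), or 1.48-fold, with an edgeR p of 0.0326 unadjusted and 0.363 adjusted. With the mean level of the granule neuron markers as a covariate it was 0.21 (adjusted p 0.880 by edgeR). That covariate itself largely followed the genotype, as given below. Over all alternatives the adjusted p of Calb2 ranged from 0.183 to 0.880. In the EC the means were 17.5 ± 4.08 CPM in wt (SD, n = 5) and 19.0 ± 1.97 in Ts66Yah (SD, n = 6), a log2 fold change of 0.12 (-0.17 to 0.41). In a list of 15 genes of mossy cells, Cajal-Retzius cells and calretinin interneurons, 1 of 14 tested was called in the HIP. This was Htr3a, a serotonin receptor subunit of a class of interneurons. It rose from 9.77 ± 1.08 CPM (SD, n = 5) to 14.9 ± 2.03 (SD, n = 6), or by 0.61 on the log2 scale (SE 0.10, edgeR adjusted p 0.0126). In the EC it was at 10.0 CPM in wt and 12.8 in Ts66Yah, a log2 fold change of 0.35 that was not called (edgeR adjusted p 0.672). The difference between the regions was not called either (unadjusted p 0.149 by edgeR). In the HIP the list's median log2 fold change was 0.08, against 0.00 over all tested genes. Its 2 highest genes per kb, Cck (133.1 ± 69.8 and 106.3 ± 6.89 CPM, SD) and Gad1 (409.9 and 413.0 CPM), were not called there. Of the 14 tested, 8 had a positive log2 fold change. An unadjusted p under 0.05 by edgeR was met by 3, against 11.9% of all tested genes. Besides Htr3a these were, named after their values were seen, Reln at 0.22 (unadjusted p 0.0092, adjusted 0.244) and Gad2 at 0.21 (unadjusted p 0.0169, adjusted 0.299).

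The stem cell and cell cycle genes had lower mean levels in Ts66Yah HIP and were not called. Sox2 (ENSMUSG00000074637; chr3:34650405-34652461, plus strand, within an intron of Sox2ot) was at 22.8, 19.0, 25.1, 25.6 and 27.7 CPM in wt and between 18.9 and 23.9 CPM in Ts66Yah (median 20.8), a log2 fold change of -0.18 (95% interval -0.38 to 0.02, edgeR adjusted p 0.472). Top2a (ENSMUSG00000020914; chr11:98992943-99024189) was at 1.38, 0.974, 1.53, 1.36 and 1.65 CPM in wt and between 0.959 and 1.47 CPM in Ts66Yah (median 1.09), a log2 fold change of -0.25 (-0.63 to 0.12, adjusted p 0.620). Mki67 (ENSMUSG00000031004; chr7:135689784-135716361) had a log2 fold change of -0.19 (-0.51 to 0.14, adjusted p 0.676). The summed level of the 26 further cell cycle genes was 160.4 to 167.5 CPM in wt HIP and 131.8 to 158.0 in Ts66Yah HIP. The 2 highest per kb were Ccnd2 (82.8 and 69.9 CPM, unadjusted p 0.0137, adjusted 0.281) and Pcna (24.6 and 20.2 CPM, unadjusted p 0.0171, adjusted 0.299, both by edgeR). Most of the difference between the sums lay in these 2 genes. The mean log2 CPM of the list, in which each gene weighs equally, overlapped, at 0.51 to 0.65 in wt and 0.44 to 0.56 in Ts66Yah. Another 2 genes, named after their values were seen, had an unadjusted p under 0.05: Aurka, a mitotic kinase, at a log2 fold change of 0.35 (unadjusted p 0.0206, adjusted 0.317, by edgeR) and Cdc20, an activator of the anaphase-promoting complex, at -0.61 (unadjusted p 0.0409, adjusted 0.398). None of the 23 tested was called, 10 had a positive and 13 a negative log2 fold change, and their median was -0.06.

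Among the immature neuron genes, the genotypes were closest in the HIP for Dcx and Sox11, whereas Calb2, described above, differed most. Dcx had a mean of 19.5 ± 2.75 CPM in wt HIP (SD, n = 5) and 18.9 ± 2.42 in Ts66Yah HIP (SD, n = 6), which differ by -0.04 on the log2 scale (95% interval -0.27 to 0.19), so that a change of 1.5-fold in either direction lay outside the interval. The same held for Sox11 (ENSMUSG00000063632; chr12:27334264-27342574), at 10.6 ± 0.914 and 9.76 ± 2.02 CPM with a log2 fold change of -0.12 (-0.38 to 0.15). For the low genes the intervals were wide: -0.18 (-0.72 to 0.36) for Draxin (ENSMUSG00000029005; chr4:148098437-148130698), 0.19 (-0.60 to 0.99) for Igfbpl1 and 0.46 (-0.45 to 1.38) for Eomes, each of which includes 1.5-fold changes. Without Ts66Yah replicate 3, the highest Igfbpl1 library, the estimate for Igfbpl1 was -0.10.

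**Figure D3:**
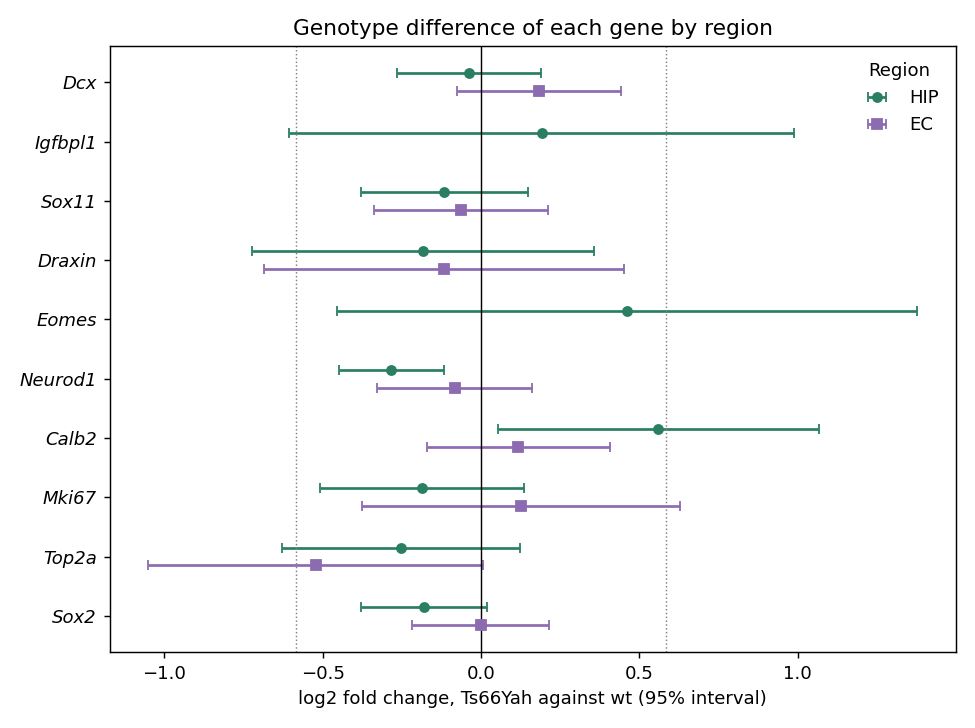
Log2 fold change of Ts66Yah against wt (horizontal axis) with its 95% interval for each gene in the HIP (green circles) and the EC (purple squares); dotted lines mark 1.5-fold in either direction. In the HIP the intervals of Neurod1 and Calb2 leave out 0 without passing the adjusted threshold, and Igfbpl1 and Eomes have no EC value because their counts were too low.

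In the EC, 0.283% of all tested genes were called and 0 of the 8 tested neurogenesis genes, with 0 at an unadjusted p under 0.05 and 0 by DESeq2 and limma voom. The largest difference was that of Top2a, at 0.851, 0.935, 0.719, 0.769 and 0.441 CPM in wt and between 0.329 and 0.705 CPM in Ts66Yah (median 0.530), a log2 fold change of -0.52 (95% interval -1.05 to 0.01, edgeR adjusted p 0.809). These levels rest on 12 to 31 counts per library. Dcx had a log2 fold change of 0.18 (-0.07 to 0.44), Mki67 of 0.13 (-0.38 to 0.63) and Sox2 of 0.00 (-0.22 to 0.21). The test of whether the genotype effect differed between the regions called 0 of 10 genes and 0% of all genes, with 0 of the 10 at an unadjusted p under 0.05 and 0 by DESeq2. The largest of these differences of log2 fold changes was 0.44 for Calb2 (95% interval -0.16 to 1.04).

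Of the further lists, none had a gene called between the genotypes in the HIP apart from Htr3a, and in the EC 1 of 10 microglia genes was called. This was Trem2, a receptor of microglia, which fell by 0.69 on the log2 scale (17.5 ± 3.82 to 10.9 ± 0.945 CPM, edgeR adjusted p 0.0444). In the HIP its level was 14.3 ± 2.50 CPM in wt and 10.1 ± 1.05 in Ts66Yah, which was -0.50 on the log2 scale and not called (SE 0.11, adjusted p 0.0680 by edgeR), and the difference between the regions had an unadjusted p of 0.310 and an adjusted p of 1. In the HIP, intermediate progenitor genes had a median log2 fold change of -0.13 with 2 of 10 positive, and 2 of 10 at an unadjusted p under 0.05, against 11.9% of all tested genes; the 2 highest per kb were Elavl2 (109.1 and 111.3 CPM) and Gadd45g, a growth arrest gene (11.3 ± 3.27 and 7.91 ± 1.20 CPM, adjusted p 0.244). Sox4, the SoxC partner of Sox11, was at 17.8 ± 1.43 CPM in wt HIP and 14.6 ± 0.421 in Ts66Yah HIP. Its log2 fold change was -0.28 in the HIP (SE 0.06, unadjusted p 0.000525, adjusted p 0.0678, by edgeR) and -0.04 in the EC. The difference between the regions was -0.24 on the log2 scale (unadjusted p 0.0783 by edgeR) and was not called. Among 24 tested signals of the adult niche, 0 were called, 10 were positive and the median was -0.04; the neurotrophin receptor Ntrk2 stood at 618.4 and 644.9 CPM and the growth factor receptor Fgfr1 at 121.7 and 133.8 CPM. Granule neuron markers had summed levels of 512.6 to 552.3 CPM in wt HIP and 470.3 to 581.2 in Ts66Yah HIP, with 0 of 10 called. Their mean log2 CPM, the covariate used above, was 5.25 to 5.38 in wt HIP, and in Ts66Yah HIP it was 5.07 to 5.23 in 5 libraries, below all wt libraries, and 5.44 in replicate 5, above them. At an unadjusted p under 0.05 there were 2 of the 10: C1ql2 (43.9 ± 13.4 and 29.0 ± 8.29 CPM, log2 fold change -0.60, edgeR adjusted p 0.302) and, named after its values were seen, Plk5 (22.2 and 16.5 CPM, log2 fold change -0.43, adjusted p 0.154). Neurod1 had a log2 fold change of -0.20 with this covariate. Because the covariate largely followed the genotype, apart from replicate 5, the fit does not separate it well from the genotype. Replicate 5 was also the Ts66Yah HIP library with the lowest level of Calb2, at 12.4 CPM. The part of granule neurons in the levels of Calb2 and Neurod1 was not tested.

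The genes differed in how far mice of a genotype spread. In the HIP the coefficient of variation between mice was 40.8% in wt and 57.6% in Ts66Yah for Igfbpl1, and 49.7% and 54.3% for Eomes, where counting alone would give about 13.6% and 12.5%, and 25.3% and 21.3%. It was 33.2% and 29.0% for Calb2, against 14.1% and 12.8% for Dcx and 8.02% and 9.98% for Neurod1. Counting alone would give 4.30% and 3.46% for Calb2 and 3.57% and 3.91% for Neurod1.

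Whether the genes deviated together was tested over the 11 HIP libraries after the genotype mean of each gene was subtracted, with an exact permutation test within genotypes. Of 45 pairs, 0 passed after Benjamini-Hochberg adjustment and 3 had an unadjusted p under 0.05. Top2a and Sox2 had the highest correlation (Pearson r 0.89, exact permutation p 0.00243, adjusted 0.109; Spearman rho 0.85, p 0.00353, adjusted 0.159), with r = 0.77 without the 2 libraries farthest from the median of Top2a. Igfbpl1 and Eomes followed (r 0.75, exact permutation p 0.0189, adjusted 0.425; rho 0.64, p 0.0570, adjusted 0.856; r 0.64 without the 2 farthest libraries), then Draxin and Mki67 (r 0.65, exact permutation p 0.0440, adjusted 0.660; rho 0.70, p 0.0430, adjusted 0.856; r 0.47). The cell cycle pair Mki67 and Top2a did not deviate together in the HIP, at r = -0.22 (exact permutation p 0.542, adjusted 0.859; rho -0.15, p 0.693, adjusted 0.962; r -0.40).

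**Figure D4:**
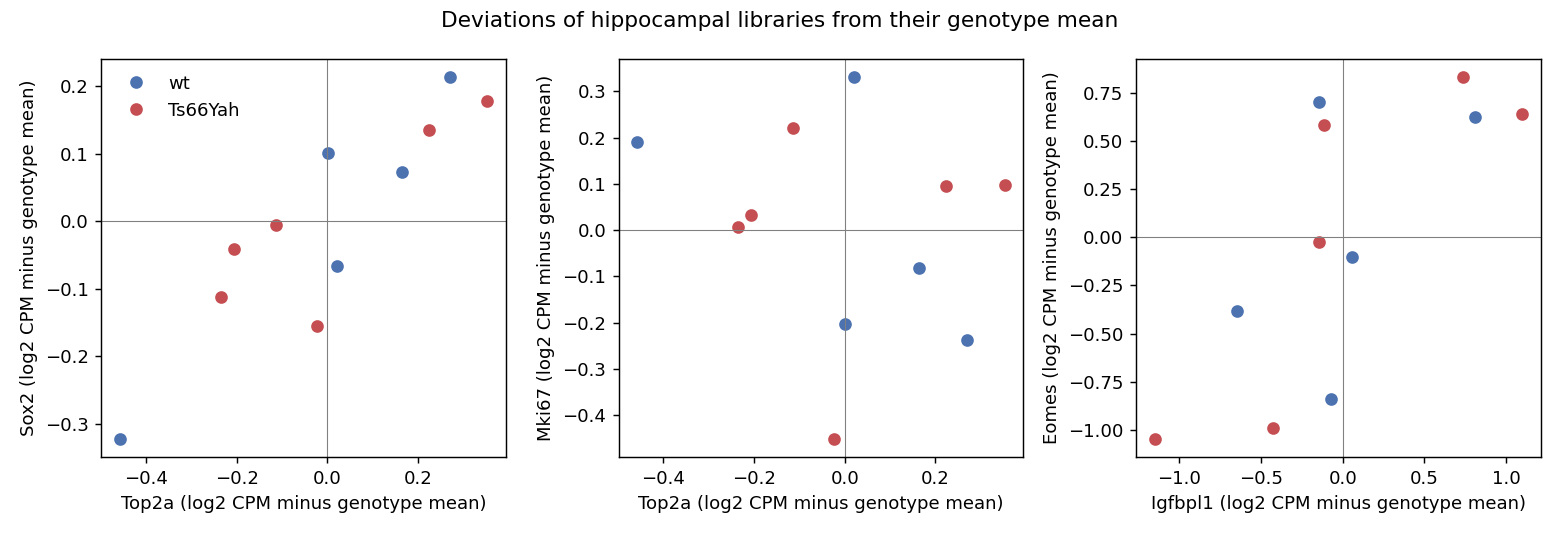
Deviations from the genotype mean in log2 CPM for 3 pairs of genes over the 11 HIP libraries (Sox2, Mki67 and Eomes on the vertical axes; Top2a, Top2a and Igfbpl1 on the horizontal axes); each point is a library, blue for wt and red for Ts66Yah. Top2a and Sox2 line up (r 0.89), Top2a and Mki67 do not (r -0.22), and Igfbpl1 and Eomes spread along a diagonal (r 0.75).

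Genes outside the set with the most similar deviations were sought among 14998 genes that averaged 1 CPM or more over the HIP libraries. For Top2a they were Cd300a (r 0.94), Gm15710 (0.93), Phlda1 (0.91), Cited2 (0.88) and Acot2 (0.87), and for Sox2 Gm15710 (0.94), Gm11273, Btg1, Pdcd5 and Lgals9 (0.905 to 0.915). Gm15710 stood in both groups. For Dcx they were Rab3c, a vesicle GTPase, (0.92), 1700003M07Rik, Exoc3, Usp46 and Eif1-ps2 (0.887 to 0.901). These are descriptions over 11 libraries, which share tissue, dissection and depth.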

How the data were processed

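RNA from the HIP and EC of 5 wt and 6 Ts66Yah mice was read from 1 end on the Illumina HiSeq platform. Per the study's methods and the labels, the authors made base calls with bcl2fastq 2.17.1.14, aligned reads to GRCm38 (mm10) with Hisat2 and counted them per gene with HTSeq-count on Ensembl annotation. The labels name a poly-A mRNA library kit and the study's methods also name ribosomal RNA depletion; which was used was not settled here, and it bears on levels per kb of exon and on reads from overlapping transcripts. The treatment of multimapping reads and the strand setting are not given in the sources used here. The deposited values are raw counts per gene and library, not normalized. The authors' columns of means, log2 fold changes, p-values, ratio values and scores from their own comparisons were not used.

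Counts of 55385 genes were analysed, of which 55144 matched GENCODE M21. Genotypes within a region, regions within a genotype and their interaction were tested with edgeR 4.0.16 (R 4.3.3; TMM, filterByExpr, quasi-likelihood test, two-sided, Benjamini-Hochberg over all tested genes, threshold 0.05), each on the libraries it compares. Intervals are 95% intervals of these fits; intervals of ratios of summed counts are exact and cover counting error only. Levels are CPM scaled by TMM over all 22 libraries, with a prior count of 2 on the log2 scale. DESeq2 1.42.0 and limma voom 3.58.1 were alternatives, with another normalization, other filters, one fit of all libraries, blocks, a granule neuron covariate and each replicate left out. In data simulated for the HIP comparison of genotypes, over 18230 genes, the test recovered 64% of 100 genes changed 1.5-fold and 91% of 100 changed 2-fold. The changed genes were drawn from those that averaged above about 1 CPM. The rates therefore do not cover Eomes, with HIP means of 0.420 CPM in wt and 0.582 in Ts66Yah. Draxin, at 1.03 and 0.900 CPM, lay at that limit. Same-numbered mice of the genotypes are different animals, and their deviations correlated at -0.007 to 0.177 (2 of 10 above 0.1), so the numbers do not pair genotypes; both regions of a mouse share the animal (0.207 to 0.454, 11 of 11 above 0.1).

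The 10 genes and the lists were chosen with earlier results of these data known. Named genes are the 10, the 2 genes of each list highest in CPM per kb of exon in wt HIP, list genes called between genotypes, and the 5 genes most like Dcx, Top2a and Sox2. Promoter sequences are from RefSeq.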

Additional observations from a re-analysis of the deposited data

Results flagged for a closer look

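In 2 of the 40 groups of libraries tested for the 10 genes, a library stood apart from the others of its group by Dixon's 95% criterion, which chance meets in about 1 of 20 groups. Mki67 was at 1.67 CPM (70 counts) in Ts66Yah HIP replicate 6, where the nearest library was at 2.32 CPM; without that animal the log2 fold change of Ts66Yah against wt in the HIP was -0.10 in place of -0.19, and it was not called with or without it. Sox2 was at 28.5 CPM (971 counts) in wt EC replicate 5, where the nearest library was at 21.8 CPM; without it the log2 fold change in the EC was 0.10 in place of 0.00, again not called.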

How the results depend on the processing

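DESeq2 called 1 of the 10 genes between genotypes in the HIP, against 0 by edgeR, and 370 genes in all against 109. The count over all genes was 58 with the replicate block, 65 with a block for the animals' number range, fitted without wt replicate 1, and 66 with the granule neuron covariate. In the EC it was 108 with DESeq2 and 79 with all libraries in one fit, against 50. The replicate block gave -0.27 for Neurod1 (adjusted p 0.468) and 0.58 for Calb2 in the HIP, and no block changed the call of any of the 10 genes between genotypes. The cause of these shifts was not tested.

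Of the fold changes of the 10 genes under these alternatives, 253 kept direction and side of the threshold, 8 changed sign and 1 became called; with 1 animal left out, 387, 19 and 1. None that changed sign was called. Signs changed for Dcx in the HIP (0.001) and Sox11 in the EC (0.033) with the animal range block, for Sox2 in the EC (0.002 with RLE factors, DESeq2, no filter or at least 1 CPM; 0.004 with voom), and for Sox11 between regions in wt without a filter (0.004). With 1 animal left out, the estimates spanned 0 between genotypes for Dcx (-0.121 to 0.007) and Igfbpl1 (-0.10 to 0.449) in the HIP, and for Sox11 (-0.138 to 0.024), Draxin (-0.27 to 0.001), Neurod1 (-0.175 to 0.022) and Sox2 (-0.048 to 0.10) in the EC. They did so for the interaction of Igfbpl1 (-0.439 to 0.377), Draxin (-0.241 to 0.192) and Eomes (-0.16 to 0.828), and between regions in wt for Sox11 (-0.061 to 0.041) and Neurod1 (-0.023 to 0.189). Counts over all genes with 1 animal left out were 76 to 148 in the HIP and 37 to 58 in the EC. The EC libraries, an alternative chosen after seeing the data, gave r = -0.441 for Top2a and Sox2 and 0.279 for Mki67 and Top2a. Depth limits Eomes and Igfbpl1 in the EC, at 5 to 15 counts per group.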

Other observations

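Other genes of the 14998 compared, given for Igfbpl1 and Eomes after their values were seen, had deviations in the HIP most like those of Anln, a cytokinesis scaffold also found in myelin (r 0.953 with Igfbpl1, n = 11 libraries), and of Mcc (r 0.956 with Eomes). Slc17a8, the vesicular glutamate transporter VGLUT3, was also among the 5 most like Eomes (r 0.909).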
